A study of Mus musculus with 9 samples.

Results

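Fpr2 and Fpr3 are mouse formyl peptide receptors, and their RNA was followed here through the colon of healthy mice, mice with chemically induced colitis and mice with colitis given a plant polysaccharide. Each was read by 1 probe of a microarray, mclstr_79416_863_13 for Fpr2 and mclstr_72287_626_14 for Fpr3. These are 2 of the 176 genes that the authors' sheets pair with a probe of this array, and 2 of its 166924 probes. Both were chosen by their measured difference between the DSS and Control groups and between the DSS+PAMK and DSS groups on the arrays described here, so their levels and differences are given as a description, with no test.

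The array experiment held 9 colon samples of male C57BL/6J mice aged 10 weeks, 3 in each group and 1 array for each sample. Mice of the DSS and DSS+PAMK groups had 3% dextran sulfate sodium (DSS), which injures the colon epithelium, in their drinking water for 7 days, and the Control mice had 0%. From day 8 to day 14 the DSS+PAMK group received 200 mg/kg of PAMK, a polysaccharide from the rhizome of Atractylodes macrocephala, by mouth, and the Control and DSS groups received saline (1 mL per 100 g). DSS colitis is a chemical injury of a whole mucosa, and each sample was whole colon tissue, so a value is a mixture of epithelial, immune and stromal cells.

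Formyl peptide receptors are G protein-coupled receptors of neutrophils, monocytes and macrophages. They bind peptides that begin with formylmethionine, which bacteria and mitochondria make, and they also bind host proteins such as annexin A1 and serum amyloid A. Ligand binding couples to Gi proteins and starts chemotaxis and the oxidative burst, and Fpr2 also carries signals that end inflammation. The mouse has a larger set of these receptor genes than the human, and several members, Fpr3 and Fpr-rs6 among them, are also known from sensory neurons of the vomeronasal organ. In the RefSeq annotation of GRCm38.p6 the family lies on chromosome 17 in the order Fpr1, Fpr2, Fpr3, the pseudogene Fpr-rs5, Fpr-rs4, Fpr-rs7, Fpr-rs6 and Fpr-rs3, with no other gene between Fpr1 and Fpr2 and 4 between Fpr2 and Fpr3.

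Of 7 receptor genes of the family that were looked for, 3 had a named probe: Fpr2, Fpr3 and Fpr-rs6. The 3 probes are shown because what each of them can bind decides what its brightness measures. Capitals mark the bases that are identical to the most similar other probe of the array over the stretch that aligned, in the same orientation.
Fpr2: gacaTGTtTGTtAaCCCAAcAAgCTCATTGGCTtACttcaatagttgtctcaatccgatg
Fpr3: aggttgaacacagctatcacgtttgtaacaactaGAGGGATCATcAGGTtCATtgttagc
Fpr-rs6: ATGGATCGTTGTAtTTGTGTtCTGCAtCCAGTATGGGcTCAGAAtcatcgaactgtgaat

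The Fpr2 and Fpr3 probes had no similar probe among the 166923 others at an expected number of chance matches of at most 0.001. The best alignment of the Fpr2 probe paired 26 of 32 bases, and that of the Fpr3 probe 17 of 19. The longest run of bases that the Fpr2 and Fpr3 probes share was 6, so these probes do not overlap in sequence. Probes were aligned with other probes only and not with transcripts. Whether a probe also binds RNA of another receptor gene was therefore not tested. The Fpr-rs6 probe differed in this respect, since 2 unnamed probes of the array aligned with it, over 44 bases with 4 mismatches and over 47 bases with 6 mismatches. Capitals in these 2 mark the bases identical to the Fpr-rs6 probe.
mclstr_85473_344_10: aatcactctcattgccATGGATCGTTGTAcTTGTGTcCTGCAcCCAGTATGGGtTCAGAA
mclstr_89420_347_14: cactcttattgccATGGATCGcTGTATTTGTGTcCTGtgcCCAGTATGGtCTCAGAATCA

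Fpr2 RNA was low in healthy colon, high in colitis and mostly lower again with PAMK. Its normalized log2 intensity was 6.07, 5.07 and 5.66 on the 3 Control arrays, 9.67, 9.05 and 8.08 on the 3 DSS arrays, and 6.36, 7.91 and 5.64 on the 3 DSS+PAMK arrays. The groups averaged 5.60 ± 0.50, 8.94 ± 0.80 and 6.64 ± 1.16 (SD, n = 3 each). Every DSS array lay above every Control array and every DSS+PAMK array, but the gap between the lowest DSS array (8.08) and the highest DSS+PAMK array (7.91) was small beside the spread within either group. The Control and DSS+PAMK groups overlapped. The Fpr2 probe was well above background on all 3 arrays of each group.

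Before normalization, the processed intensity of Fpr2 ran from 36.2 to 66.4 (Control), from 301.6 to 715.9 (DSS) and from 61.2 to 225.6 (DSS+PAMK). The software's own error of these readings was between 10% and 11.8% of the intensity. The DSS mean of Fpr2 was 3.34 above the Control mean on the log2 scale (10.1-fold), and the DSS+PAMK mean was 2.30 below the DSS mean (4.92-fold) and 1.04 above the Control mean (2.05-fold).

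Fpr3 had the same order of groups. Its normalized log2 intensity was 4.07, 4.42 and 3.85 on the Control arrays, 7.45, 6.88 and 6.01 on the DSS arrays, and 4.64, 5.86 and 4.32 on the DSS+PAMK arrays. The group means were 4.12 ± 0.29, 6.78 ± 0.73 and 4.94 ± 0.81 (SD, n = 3 each). The DSS arrays again lay above all others, with the lowest DSS array at 6.01 and the highest DSS+PAMK array at 5.86, and the DSS+PAMK arrays overlapped the Control arrays. The Fpr3 probe, too, was well above background on all 9 arrays.

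The processed intensity of Fpr3 ran from 15.5 to 25.96 (Control), from 69.8 to 144.9 (DSS) and from 20.0 to 48.3 (DSS+PAMK), with a software error of 10.1% to 17.5%. The DSS mean was 2.67 above the Control mean on the log2 scale (6.34-fold). The DSS+PAMK mean was 1.84 below the DSS mean (3.58-fold) and 0.82 above the Control mean (1.77-fold). With the normexp background correction, which adds an offset to every intensity, these log2 differences were 1.17, -0.91 and 0.26. The DSS+PAMK minus DSS difference was then less than 2-fold.

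**Figure D1:**
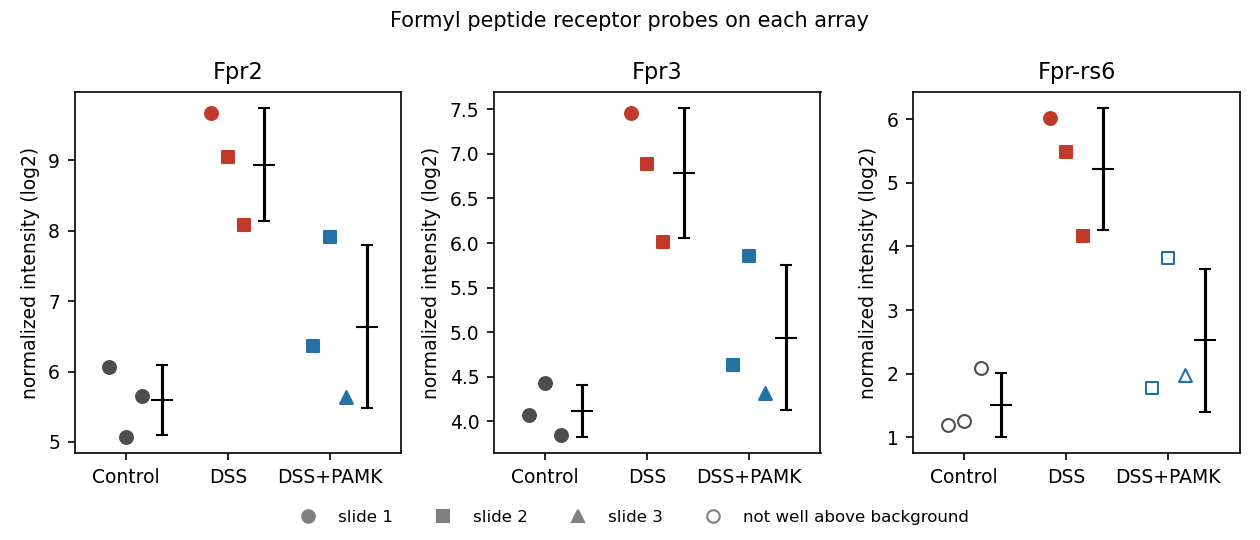
Normalized log2 intensity of the Fpr2, Fpr3 and Fpr-rs6 probes on each of the 9 arrays, by group, with the mean and SD (n = 3) beside each group; the marker's shape gives the slide and an open marker a spot that was not well above background. For each receptor the 3 DSS arrays lie above the Control and DSS+PAMK arrays, and 1 DSS+PAMK array lies close to the lowest DSS array.

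For both receptors the order of the groups by mean was DSS, DSS+PAMK and Control. The arrays of DSS+PAMK and Control, neighbours in that order, overlapped, and whether these groups differ was not tested. Because the DSS arrays do not overlap the others, it is useful to know how common that is: of 99612 tested probes, 10.5% had all 3 DSS arrays above all 3 Control arrays, and 6.53% had all 3 DSS+PAMK arrays below all 3 DSS arrays. Since both receptors were chosen on these contrasts, nothing is read from their being among them.

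The size of the differences can be placed among all probes in the same way. Of the tested probes, 62 had a higher DSS minus Control difference than Fpr2 and 131 a higher one than Fpr3. In the DSS+PAMK minus DSS difference, 120 probes lay below Fpr2 and 236 below Fpr3. The difference that remained between DSS+PAMK and Control was less unusual, with 1854 probes above Fpr2 and 3596 above Fpr3. Both receptors were chosen on the DSS minus Control and DSS+PAMK minus DSS differences and not on the last. Nothing is therefore read from these ranks or from their contrast. The median difference over all tested probes was -0.04, 0.02 and -0.01 in the 3 comparisons.

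**Figure D2:**
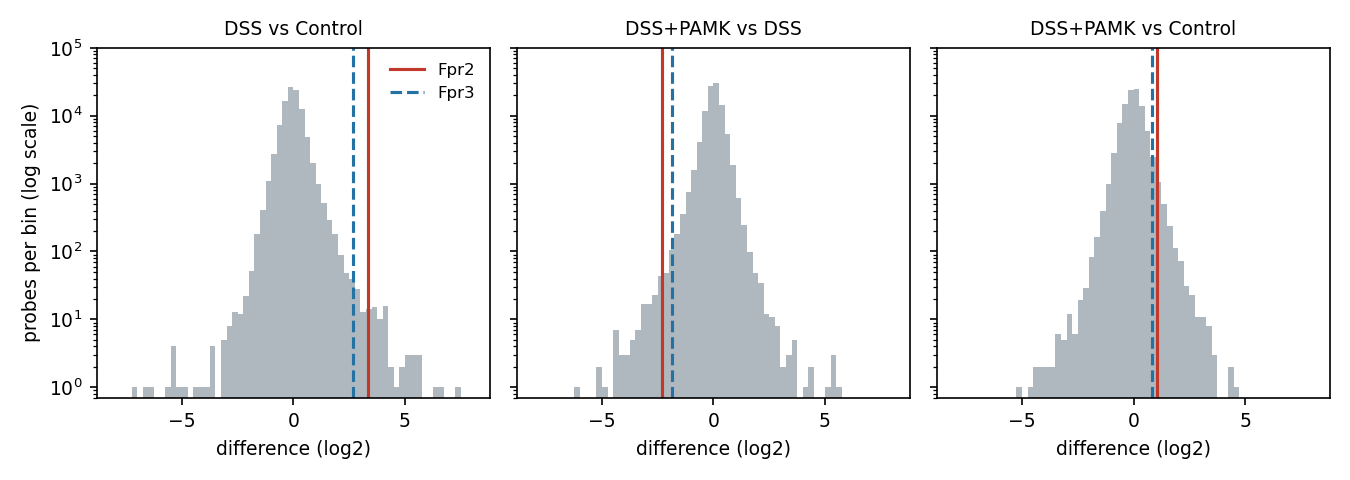
Number of tested probes (log scale) in bins of 0.25 of the log2 difference between group means, for the 3 comparisons; vertical lines mark Fpr2 (solid) and Fpr3 (dashed). Fpr2 lies at 3.34 and Fpr3 at 2.67 in the DSS vs Control comparison, far into the upper tail. Both lie much nearer the center in the DSS+PAMK vs Control comparison, the only one on which they were not chosen.

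The 3 DSS+PAMK arrays differed in how far they lay from the Control mean. For Fpr2, the DSS+PAMK 3 array was 0.04 above the Control mean, which is 1.25% of the DSS minus Control difference. The DSS+PAMK 1 array kept 22.9% and the DSS+PAMK 2 array 69.2% of that difference. For Fpr3 the same arrays kept 7.76%, 19.6% and 65.4%. DSS+PAMK 1 lay above every Control array for both receptors, DSS+PAMK 3 lay within the Control range, and DSS+PAMK 2 was nearer to the DSS mean. Without the DSS+PAMK 2 array the difference from Control was 0.40 for Fpr2 and 0.36 for Fpr3.

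Fpr2 and Fpr3 also went together among the arrays of 1 group. The DSS 1 array was the highest and the DSS 3 array the lowest of the DSS group for both, and the DSS+PAMK 2 array was the highest of its group for both. The DSS 1 array lay 0.74 above the group mean for Fpr2 and 0.67 for Fpr3, the DSS 3 array was 0.85 and 0.77 below it, and the DSS+PAMK 2 array was 1.27 and 0.92 above it. In the Control group this likeness was absent, where the Control 2 array was the lowest for Fpr2 and the highest for Fpr3. Over more genes this held for some of these arrays only. Among the 1969 probes called higher in DSS than in Control, 56.7% had DSS+PAMK 2 as the highest array of its group, against 37.7% of all tested probes, and 16.8% had DSS 3 as the highest DSS array, against 29.3%. DSS 2 was more often the highest DSS array of these probes (43.8%, against 37.9% of all) than DSS 1 (39.4%, against 32.8%).

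The arrays lay on 3 slides, which were also the scan runs. Slide 1 held the 3 Control arrays and DSS 1, slide 2 held DSS 2, DSS 3, DSS+PAMK 1 and DSS+PAMK 2, and slide 3 held DSS+PAMK 3. Within slide 1, the DSS array was 4.08 above the mean of the Control arrays for Fpr2 and 3.34 for Fpr3. Within slide 2, the mean of the 2 DSS+PAMK arrays was 1.43 below the mean of the 2 DSS arrays for Fpr2 and 1.20 below it for Fpr3. With slide as a fixed block in the fit the same values were obtained, and the DSS+PAMK minus Control difference, which then joins groups that share no slide, became 2.65 for Fpr2 and 2.14 for Fpr3. With slide as a random block (estimated correlation 0.0774) the values stayed near those of the fit with no block: 3.36 (DSS minus Control) and -2.25 (DSS+PAMK minus DSS) for Fpr2, -1.81 (DSS+PAMK minus DSS) for Fpr3, and 1.11 and 0.90 for the DSS+PAMK minus Control differences of Fpr2 and Fpr3. The last depended on the scaling as well, with 0.37 for Fpr3 when arrays were scaled by their 75th percentile and, with normexp, 0.60 for Fpr2 and 0.26 for Fpr3. The directions of DSS minus Control and of DSS+PAMK minus DSS were the same within slides, while the DSS+PAMK minus DSS differences were smaller there.

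**Figure D3:**
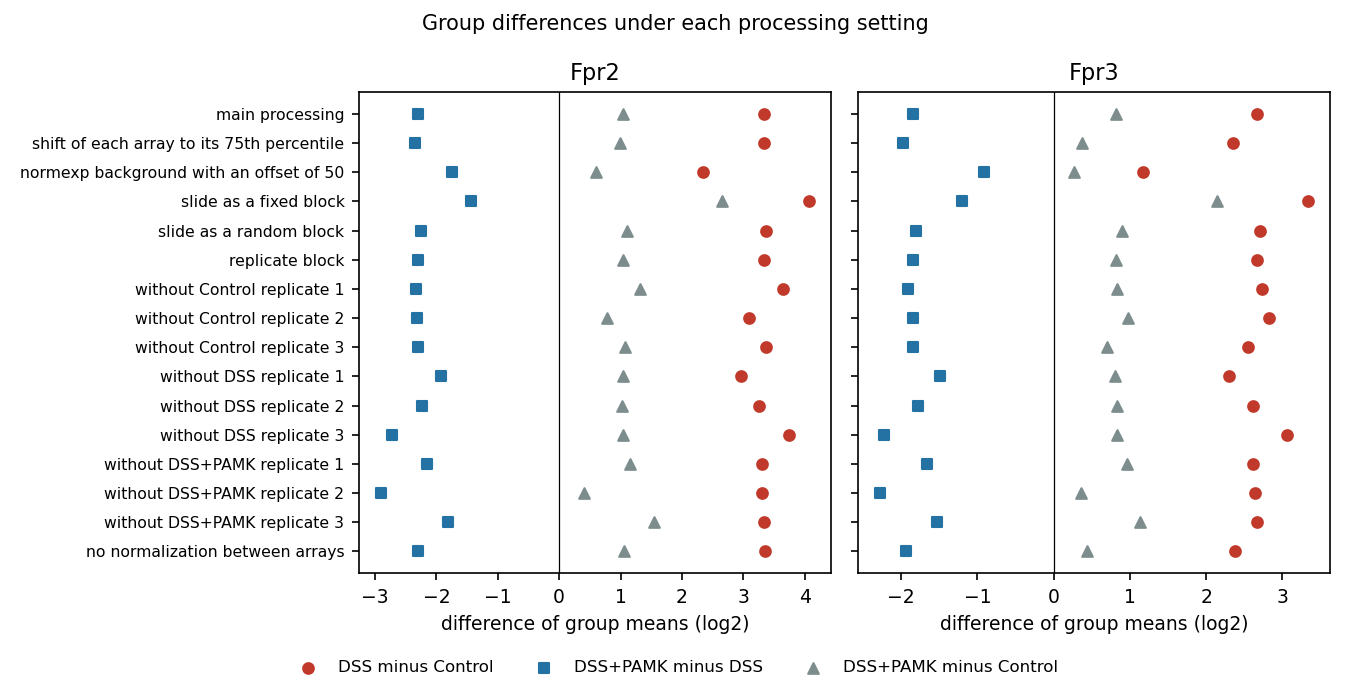
Log2 difference between group means of Fpr2 (left) and Fpr3 (right) under the main processing, 5 alternatives, each array left out in turn and, added later, no normalization between arrays. All DSS minus Control differences lie above 0 and all DSS+PAMK minus DSS differences below 0; the smallest sizes for Fpr3 are 1.17 and -0.91, both with the normexp background correction.

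Fpr-rs6, the third receptor with a named probe and named from the same sheets as the others, was detected in the DSS group alone. Its normalized log2 intensity was 6.01, 5.48 and 4.16 on the DSS arrays, where it was well above background on 3 of 3 arrays. It stayed near background on each Control array (1.19, 1.26 and 2.10) and each DSS+PAMK array (1.78, 3.82 and 1.97), so only a bound can be given. Against the lowest signal among probes well above background on each array, or the probe's own value where higher, the DSS mean was at least 4.55-fold above Control and at least 3.03-fold above DSS+PAMK. With normexp, which adds an offset to every intensity, the differences were 0.73 and -0.57, below these bounds. No p is given, since its other values are near the background. Like Fpr2 and Fpr3, it was highest on DSS 1 within the DSS group.

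The 2 probes that resemble the Fpr-rs6 probe were picked by sequence and not by their values. The first, mclstr_85473_344_10, was well above background on 2 DSS arrays, 1 DSS+PAMK array and no Control array, and was not tested. Its means were 2.54 ± 0.60 (Control), 3.98 ± 0.61 (DSS) and 3.24 ± 0.66 (DSS+PAMK) (SD, n = 3 each), most of them from readings near the background. Its DSS arrays lay above its Control arrays, and its DSS+PAMK arrays overlapped both. The second, mclstr_89420_347_14, was well above background on all 9 arrays, with means of 7.52 ± 0.17, 7.32 ± 0.40 and 6.87 ± 0.09 (SD, n = 3 each). It was called in none of the 3 comparisons, with limma adjusted p of 0.704 for DSS vs Control, 0.696 for DSS+PAMK vs DSS and 0.288 for DSS+PAMK vs Control.

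Of 8 genes for ligands of these receptors, 1 had a named probe. Saa3, a serum amyloid A made at sites of inflammation, had log2 intensities of 6.74, 5.56 and 6.48 (Control), 8.07, 8.71 and 7.62 (DSS) and 6.10, 5.77 and 5.45 (DSS+PAMK). The DSS arrays lay above all others. A probe was called when its groups differed at least 2-fold with an unadjusted p of at most 0.05 in limma, and Saa3 was called higher in DSS than in Control (3.66-fold, adjusted p = 0.104), as were 1.98% of all tested probes. It was called lower in DSS+PAMK than in DSS (5.14-fold, adjusted p = 0.628), as were 1.06%. In contrast to the receptors, its DSS+PAMK mean was 0.49 below the Control mean, and DSS+PAMK 2 was not its highest DSS+PAMK array.

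After adjustment over all tested probes, 175 probes (0.176%) passed in DSS vs Control, and none passed in the other 2 comparisons, where limma gave 7192 (DSS+PAMK vs DSS) and 13874 (DSS+PAMK vs Control) at an unadjusted p of at most 0.05 with no limit on the fold. The methods' t-test gave 0 after adjustment in all 3 comparisons. The 175 were not stable: in DSS vs Control none passed without any 1 of the Control arrays or without DSS 1, none with only the 2 groups in the fit, with no filter on dim probes or with a replicate block, 91 passed with slide as a random block, and 1229 with normexp. All genes named here, Fpr-rs6 among them, come from the authors' sheets of genes selected on these same arrays, so their calls and counts are not independent evidence of a direction. None of 19 genes of the signaling pathway behind the receptors (Gi proteins, phospholipase C, phosphoinositide 3-kinase gamma, the NADPH oxidase) had a named probe, and they were not analysed here.

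Of 10 other chemoattractant receptors, Cxcr2 and Ccr2 had a named probe. Only Ccr2 is counted as called higher in DSS than in Control (against 1.98% of all tested probes). Cxcr2 was tested only because of its DSS arrays, so its call is not counted. Cxcr2, which guides neutrophils along CXC chemokines, read 2.68, 1.22 and 1.77 on the Control arrays, 5.32, 5.73 and 3.45 with DSS and 2.38, 3.14 and 1.98 with DSS+PAMK, and every DSS array lay above all others. Its probe was well above background on the DSS arrays only, and the DSS mean was at least 3.48-fold above Control and at least 2.32-fold above DSS+PAMK (differences of 0.52 and -0.49 with normexp). Ccr2, which brings monocytes from the blood, was well above background throughout. Its brighter probe averaged 5.18 ± 0.14, 7.86 ± 0.37 and 7.00 ± 0.48 (SD, n = 3 each). It was called higher in DSS than in Control (6.39-fold, adjusted p = 0.0352) and higher in DSS+PAMK than in Control (3.52-fold, adjusted p = 0.138), as were 1.65% of all tested probes. The second Ccr2 probe gave differences of the same direction, with 6.04-fold and 3.46-fold.

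Few markers of the cells that carry these receptors had a named probe. A marker was named only if the authors' sheets of genes selected on these same arrays list it. Its call was therefore likely beforehand, and the shares of all tested probes given below are no measure of enrichment. The unnamed markers were not analysed, so those named are not a fair sample of a cell type. In bulk tissue, fewer cells of a type and less RNA per cell cannot be told apart. Of 16 neutrophil markers, 2 had a named probe (Cxcr2 and Clec4d). Clec4d was called higher in DSS than in Control (against 1.98% of all tested probes) and lower in DSS+PAMK than in DSS (against 1.06%). The calls of Cxcr2 are not counted, since they rest on values near the background in the Control and DSS+PAMK groups. With slide as a fixed block only 1 of the 2, Clec4d, was called lower in DSS+PAMK than in DSS. Clec4d was 16.4-fold higher in DSS than in Control (adjusted p = 0.0501) and 6.61-fold lower in DSS+PAMK than in DSS (adjusted p = 0.660). Their summed normalized intensity was 105.1, 75.3 and 111.5 on the Control arrays, 2275, 2508 and 640.9 on the DSS arrays and 155.5, 469.6 and 176.6 on the DSS+PAMK arrays. The brightest of the pair was Clec4d, a C-type lectin of myeloid cells, with 11.13, 11.26 and 9.30 on the DSS arrays against 6.62, 6.19 and 6.76 on the Control arrays. As with the receptors, DSS 3 was the lowest DSS array and DSS+PAMK 2 the highest DSS+PAMK array in this sum.

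Of 18 monocyte and macrophage markers, 7 had a named probe, and the unnamed ones were not analysed. Of these, 6 (Itgam, Ccr2, Ms4a6d, Fcgr1, Fcgr4 and Lilrb4a) were called higher in DSS than in Control (against 1.98% of all tested probes). All of the 6 but Ccr2 were called lower in DSS+PAMK than in DSS (against 1.06%). The calls of Marco are not counted, since they rest on values near the background in the Control group and on 2 DSS+PAMK arrays. The median differences over all 7, Marco among them, were 2.03 and -1.19. With Marco counted, 6 were called lower, and 3 with slide as a fixed block. The summed intensity of all 7 was 795.9, 572.1 and 711 (Control), 3794, 2989 and 2092 (DSS) and 1184, 1563 and 1037 (DSS+PAMK). Ms4a6d was the brightest, at 7.49 ± 0.14, 9.52 ± 0.36 and 8.35 ± 0.20 (SD, n = 3 each). Itgam, the integrin alpha M chain of myeloid cells, averaged 4.19 ± 0.29, 6.12 ± 0.26 and 4.93 ± 0.05 (SD, n = 3 each). Lilrb4a, an inhibitory receptor of myeloid cells, was 5.86-fold higher in DSS than in Control (adjusted p = 0.0352).

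Other cells of the colon were represented by few probes, named from the same sheets. The mast cell markers Cpa3 and Ms4a2, 2 of 8 in that list, had a named probe. Cpa3 was called higher in DSS than in Control (against 1.98% of all tested probes) and higher in DSS+PAMK than in Control (against 1.65%). Cpa3 was also called lower in DSS+PAMK than in DSS (2-fold, adjusted p = 0.666, against 1.06%). With normexp its DSS+PAMK minus Control difference was 0.87 and its DSS+PAMK minus DSS difference -0.68, both less than 2-fold. Ms4a2, a chain of the high-affinity IgE receptor, stayed near background on the 3 Control arrays, so its calls against Control are not counted. Its level was 4.74-fold or more higher in DSS and 3.25-fold or more higher in DSS+PAMK. With normexp these 2 differences were 0.71 and 0.53. Cpa3, the mast cell carboxypeptidase, averaged 4.30 ± 0.76, 7.48 ± 0.09 and 6.48 ± 0.21 (SD, n = 3 each). Of 10 lymphocyte markers only Foxp3, the factor of regulatory T cells, had a named probe, and its means were 4.64 ± 0.24, 6.38 ± 0.12 and 5.87 ± 0.24 (SD, n = 3 each). Foxp3 was called higher in DSS than in Control (3.34-fold, limma adjusted p = 0.0352, against 1.98%). It was also called higher in DSS+PAMK than in Control (2.34-fold, limma adjusted p = 0.138, against 1.65%). With normexp these 2 differences were 0.75 and 0.49, less than 2-fold.

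Of 10 epithelium markers, 2 had a named probe. Fcgbp, a mucus protein of goblet cells, was called lower in DSS than in Control (3.05-fold, adjusted p = 0.0888), as were 1.08% of all tested probes, and higher in DSS+PAMK than in DSS (2.11-fold, adjusted p = 0.660), as were 0.643%. When arrays were scaled by their 75th percentile, its DSS+PAMK minus DSS difference was 0.99, less than 2-fold. Slc26a3, the chloride and bicarbonate exchanger of surface colonocytes, was not called in DSS vs Control and was called higher in DSS+PAMK than in DSS (2.17-fold, adjusted p = 0.660). Their summed intensity was 26810, 33590 and 27920 (Control), 13460, 12490 and 13330 (DSS) and 34400, 22090 and 29840 (DSS+PAMK), so the DSS+PAMK 2 array, highest for the receptors, was lowest of its group here. None of 8 stromal and muscle markers had a named probe. The part of these cell types in the levels of Fpr2 and Fpr3 was not tested.

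The pattern of Fpr2 over the 9 arrays was closest, among 175 other named genes with 1 probe each, to that of Fcgr1 (Pearson r = 0.99), Ccl8 (0.98), Fcgr4 (0.98), Prss27 (0.98) and Myot (0.98). Fcgr1 and Fcgr4 encode activating Fc gamma receptors of macrophages and neutrophils, and Ccl8 a chemokine of monocytes. Fcgr1 averaged 7.41 ± 0.41, 8.94 ± 0.47 and 7.84 ± 0.42, and Fcgr4 averaged 7.55 ± 0.36, 9.50 ± 0.47 and 8.25 ± 0.33 (SD, n = 3 each). Ccl8 had 12.14 ± 0.35, 14.37 ± 0.27 and 12.99 ± 0.55 (SD, n = 3 each). These r values are descriptions, since the arrays fall into 3 groups, the genes were selected on the same groups, and 581 of the tested probes (0.583%) but 45 of the 175 named genes reached an r of at least 0.9 with Fpr2.

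For Fpr3 the closest were Marco (r = 0.98), Gpr84 (0.98), Nos2 (0.98), Gm49368 (0.98) and Ifi204 (0.97), and 480 of the tested probes (0.482%) and 39 of the 175 named genes reached an r of at least 0.9. Marco is a scavenger receptor of macrophages that binds bacteria, Gpr84 a receptor of myeloid cells for medium-chain fatty acids, and Nos2 the inducible nitric oxide synthase. Marco stayed near background on the 3 Control arrays and on 2 of the 3 DSS+PAMK arrays, so its r and rank rest in part on unmeasured levels, and its DSS mean of 6.41 ± 1.35 (SD, n = 3) was at least 10.4-fold above Control (a difference of 1.51 with normexp). Gpr84 averaged 3.59 ± 0.23, 6.56 ± 0.94 and 4.26 ± 0.97, and Nos2 averaged 3.43 ± 0.80, 7.37 ± 0.89 and 5.02 ± 1.05 (SD, n = 3 each). Fpr2 and Fpr3 had an r of 0.97 with each other.

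**Figure D4:**
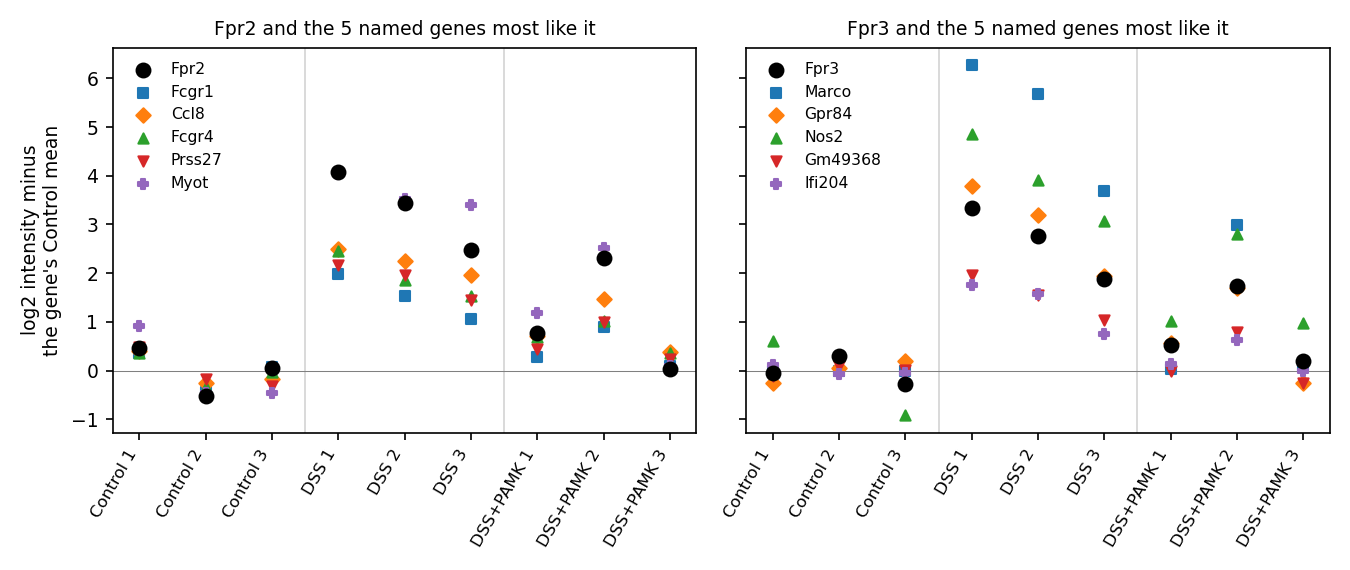
Log2 intensity on each of the 9 arrays, minus the gene's Control mean, for Fpr2 (left) and Fpr3 (right) in black and for the 5 named genes with the highest Pearson r with each in color. The genes lie highest on the DSS arrays, and within the DSS+PAMK group each lies highest on DSS+PAMK 2.

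The 250 bases before the start of Fpr2 and Fpr3 are shown because both receptors had the same order of groups. They are from RefSeq, build GRCm38.p6, on the plus strand, at chr17:17887574-17887823 for Fpr2 and chr17:17970208-17970457 for Fpr3. Searched on both strands were the TATA box TATAAA, the PU.1 core GAGGAA, AP-1 TGANTCA, STAT TTCNNNGAA, C/EBP TTGCNNAA, ISRE (GAAA, any 2 bases, GAAA) and NF-kB by its 10-letter consensus. Capitals mark the matches.
Fpr2: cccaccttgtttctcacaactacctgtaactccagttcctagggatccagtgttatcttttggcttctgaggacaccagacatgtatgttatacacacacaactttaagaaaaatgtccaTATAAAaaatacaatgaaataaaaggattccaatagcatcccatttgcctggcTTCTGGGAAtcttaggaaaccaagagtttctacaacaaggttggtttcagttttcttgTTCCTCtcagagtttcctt
Fpr3: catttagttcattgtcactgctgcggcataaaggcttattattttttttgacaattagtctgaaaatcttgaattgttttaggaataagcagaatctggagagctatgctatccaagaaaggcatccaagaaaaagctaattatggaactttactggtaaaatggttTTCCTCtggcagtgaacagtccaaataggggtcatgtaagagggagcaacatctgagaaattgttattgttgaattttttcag

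The PU.1 core was the motif that both windows held, in each on the opposite strand, starting at base -19 of Fpr2 and base -83 of Fpr3 counted from the start of the gene. Of 32851 promoters of this length, 23.2% hold it. The Fpr2 window also held the TATA letters (12.4% of promoters) and the STAT letters (7.02%), which the Fpr3 window did not. AP-1, C/EBP, ISRE and NF-kB letters were in neither. The window of Fpr-rs6 lacked the PU.1 core and held the TATA and AP-1 letters (6.75% of promoters for AP-1), and that of Fpr-rs3 held the PU.1 core. All windows of the family were poor in G and C, with 38.8% in Fpr2, 35.6% in Fpr3 and 31.6% to 38.8% over 7 genes, against a median of 52.4% over all promoters. A match of letters is a description of the sequence only, and no binding was measured.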

How the data were processed

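Colonic RNA was labeled with Cy3 and scanned by the authors, and the deposited intensity is the processed signal of Agilent Feature Extraction 10.7.1.1 (submitters' notes), linear, background-corrected and replaced by a surrogate near background. The members and all lists were chosen with earlier results of these data known.

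Control spots and outlier spots were left out (0 probe spots were saturated), log2 intensities were quantile normalized over 9 arrays, and the spots of a probe were averaged. A probe was tested if all 3 arrays of any 1 group had it well above background (99612 of 166924). How the several spots of 998 probes make 1 background call had not been set beforehand: 7 readings, which tested 99544 to 99680 probes, were compared after the data were seen, and the one used, the majority of the spots kept, was taken because it gave the number tested in earlier results of these data. Fpr2 and Fpr3 have 1 spot each and were tested under all 7.

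Group means were fitted with limma 3.58.1 (lmFit, eBayes; R 4.3.3, data.table package of version 1.17.8) with 6 residual and 2.50 prior degrees of freedom and Benjamini-Hochberg adjustment over all tested probes. The fit was tested on simulated data. Probes were named only from sheets that pair probe names with symbols (183 probes, 176 symbols, 175 of them in the table of gene names); naming by translation, which had been planned, was not done, as no protein table was used here. With several probes the brightest was used. Named are the receptors, the listed genes with a probe (in marker lists the 4 brightest and any called in DSS vs Control) and the 5 genes most correlated with each receptor. Probes were aligned with blastn 2.17.0. No arrays were identical. Precision is limited by the 3 arrays per group. The labels do not say whether each sample was 1 mouse, so p-values measure the spread between these samples. Alternatives were another scaling, background, filter, test, probe rule and set of groups, slide (statmod 1.5.0) or replicate as a block, and each array left out.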

Additional observations from a re-analysis of the deposited data

How the results depend on the processing

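The DSS minus Control and DSS+PAMK minus Control differences of Fpr2 and Fpr3 stayed above 0 and their DSS+PAMK minus DSS differences below 0 under every alternative run. With normexp the DSS minus Control difference was 2.35 for Fpr2 and 1.17 for Fpr3, and the DSS+PAMK minus DSS difference of Fpr3 was -0.91. With slide as a fixed block the values were 3.34 (Fpr3, DSS minus Control), -1.43 (Fpr2, DSS+PAMK minus DSS), 2.65 and 2.14 (Fpr2 and Fpr3, DSS+PAMK minus Control). With each array left out, Fpr2 ran from 2.96 to 3.75, from -2.91 to -1.81 and from 0.40 to 1.54 in the 3 differences, and Fpr3 from 2.29 to 3.06, from -2.28 to -1.49 and from 0.36 to 1.13. With no normalization between arrays, chosen after seeing the data, the DSS minus Control difference was 3.35 for Fpr2 and 2.38 for Fpr3. The DSS+PAMK minus Control difference of Fpr3 was then 0.44, and it was 0.37 with the shift to the 75th percentile and 0.26 with normexp, which gave 0.60 for Fpr2.

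The probes called, 3045 in DSS vs Control, 1698 in DSS+PAMK vs DSS and 2663 in DSS+PAMK vs Control, depended on the processing. They were 614, 337 and 341 with normexp, 5472, 4462 and 5004 with no filter on dim probes, 1530, 693 and 1357 with only probes above background on all 9 arrays, and 1907, 1019 and 1619 with the methods' t-test. With slide as a fixed block DSS vs Control gave 9868 and DSS+PAMK vs Control 10652, and the shift to the 75th percentile gave 5032 in DSS+PAMK vs Control; the cause was not tested. That shift also turned the split of higher and lower calls from 1969 and 1076 to 1353 and 3085 in DSS vs Control, and from 1648 and 1015 to 837 and 4195 in DSS+PAMK vs Control. The fixed slide block turned it as well, to 2938 and 6930 and to 3946 and 6706. Leaving out 1 array gave 2879 to 4832, 1443 to 3899 and 1839 to 6013, the highest without DSS 2, DSS 2 and Control 2. For 2 other readings of several spots, added after seeing the data, DSS vs Control gave 3048 (any spot) and 3043 (every spot); the other 4 were not run.

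Cxcr2 and Marco are counted here. The other chemoattractant receptors called fell from 2 to 1 in DSS vs Control with normexp and with the filter on all 9 arrays (1 tested). In DSS+PAMK vs DSS they fell from 1 to 0 with these and with the slide block (1 to 2 with an array left out). The neutrophil markers called fell from 2 to 1 in both comparisons with normexp and with that filter (1 tested). The slide block did so in DSS+PAMK vs DSS, where it called 1976 of all probes, not 1698. Monocyte and macrophage markers called fell there from 6 to 3 with that block (4 with normexp, 4 to 7 with an array left out). In DSS vs Control they fell from 7 to 6 with normexp and with that filter (6 tested). In DSS+PAMK vs Control the differences of Cxcr2 and Gm49368 changed sign with the shift to the 75th percentile.

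The replicate block gave 2951, 1701 and 2704 probes, left 0 of the 175 probes that passed after adjustment in DSS vs Control, and leaves every difference of group means as it is by design. After adjustment, DSS+PAMK vs DSS gave 17 without DSS 2, and DSS+PAMK vs Control 138 with normexp and 5 without Control 2; in DSS vs Control the count ran from 0 to 244 with an array left out and was 465 with the fixed slide block and 468 with the filter on all 9 arrays. Same-numbered arrays did not deviate together (r between -0.20 and 0.09 over 9 pairs), so the numbers were not taken as pairs. FPR signalling counts and counts with only sheet-named probes (all there were) were not run.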
